A study of Mus musculus with 3 samples.

Results

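2 windows of mouse chromosome 17 (mm9) in which listed ChIP-seq regions became fewer from a control list to a ZFP57 list to a KAP1 list are described here. The members are all regions that start between 13 and 14 Mb or between 30 and 31 Mb. They number 1040 of the 88857 regions of the 3 lists: 505 of 45956 in the control list (1.10%), 333 of 22031 in the ZFP57 list (1.51%) and 202 of 20870 in the KAP1 list (0.968%). The windows were selected on the numbers of listed regions in the 3 libraries, so the order of those numbers is given as a description and was not tested.

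The study sequenced 3 chromatin immunoprecipitation (ChIP) libraries of mouse embryonic stem (ES) cells. For the control, chromatin of ES cells that expressed no transgene was pulled down with an HA epitope tag antibody. For ZFP57, the HA antibody was applied to ES cells expressing HA tagged ZFP57. For KAP1, E14 ES cells, an established line, with no transgene were used with a KAP1 (RBCC) antibody. All cells were grown in the same medium by the labels. The ES line of both HA libraries, the promoter of the transgene and the number of clones are not stated in the sources used. Each group holds 1 library, so replicate spread is unknown and conditions were not tested against each other. The intervals below are exact 95% Poisson intervals for counts and exact (Clopper-Pearson) 95% binomial intervals for shares. They cover counting error only.

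ZFP57 is a KRAB zinc finger protein that binds methylated DNA at imprinting control regions and keeps their methylation in ES cells. KAP1 (TRIM28) is a corepressor brought to DNA by KRAB zinc finger proteins, where it gathers enzymes that methylate histone H3 and silence the site. A protein that binds particular sites gives listed regions at those sites, spaced as the sites are. A stretch of DNA that the cells carry in more copies than the reference assembly gives more reads over its whole length with any antibody. Copy number was not measured in these libraries, and its part in the counts below was not tested.

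In the window from 13 to 14 Mb, 279 regions were listed for the control, 202 for ZFP57 and 133 for KAP1. The megabase before it held 14, 4 and 13 regions, and the megabase after it held 52, 19 and 10. In the window from 30 to 31 Mb the numbers were 226, 131 and 69, between neighbouring megabases with 32, 10 and 5 regions before it and 77, 29 and 18 after it. All 3 libraries were thus raised in both windows, the control most of all by number.

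Within the windows the regions lay in 2 blocks. Counts per step of 50 kb, over the window and 1 Mb on either side, were fitted with 1 raised stretch between lower levels, for each list on its own. In the first window the fit placed the stretch from 13.2 to 13.75 Mb in each of the 3 lists. In the second window it placed the stretch from 30.6 to 31.05 Mb, again in all 3 lists. No other pair of edges on this 50 kb grid came within 2 log-likelihood units of the best in any list. The fit takes counts as even inside the stretch and outside it, which those of the first block were not. The first block was 550 kb long and took in 267 of 279 control members, 193 of 202 ZFP57 members and 130 of 133 KAP1 members. The second was 450 kb long and took in 210 of 226 control members, 128 of 131 ZFP57 members and 65 of 69 KAP1 members. It ran past the window at 31 Mb, so that 32 control, 20 ZFP57 and 9 KAP1 regions of the same block lay just outside the rule. With them the second block held 242, 148 and 74 regions, and these are the counts used for it below.

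**Figure D1:**
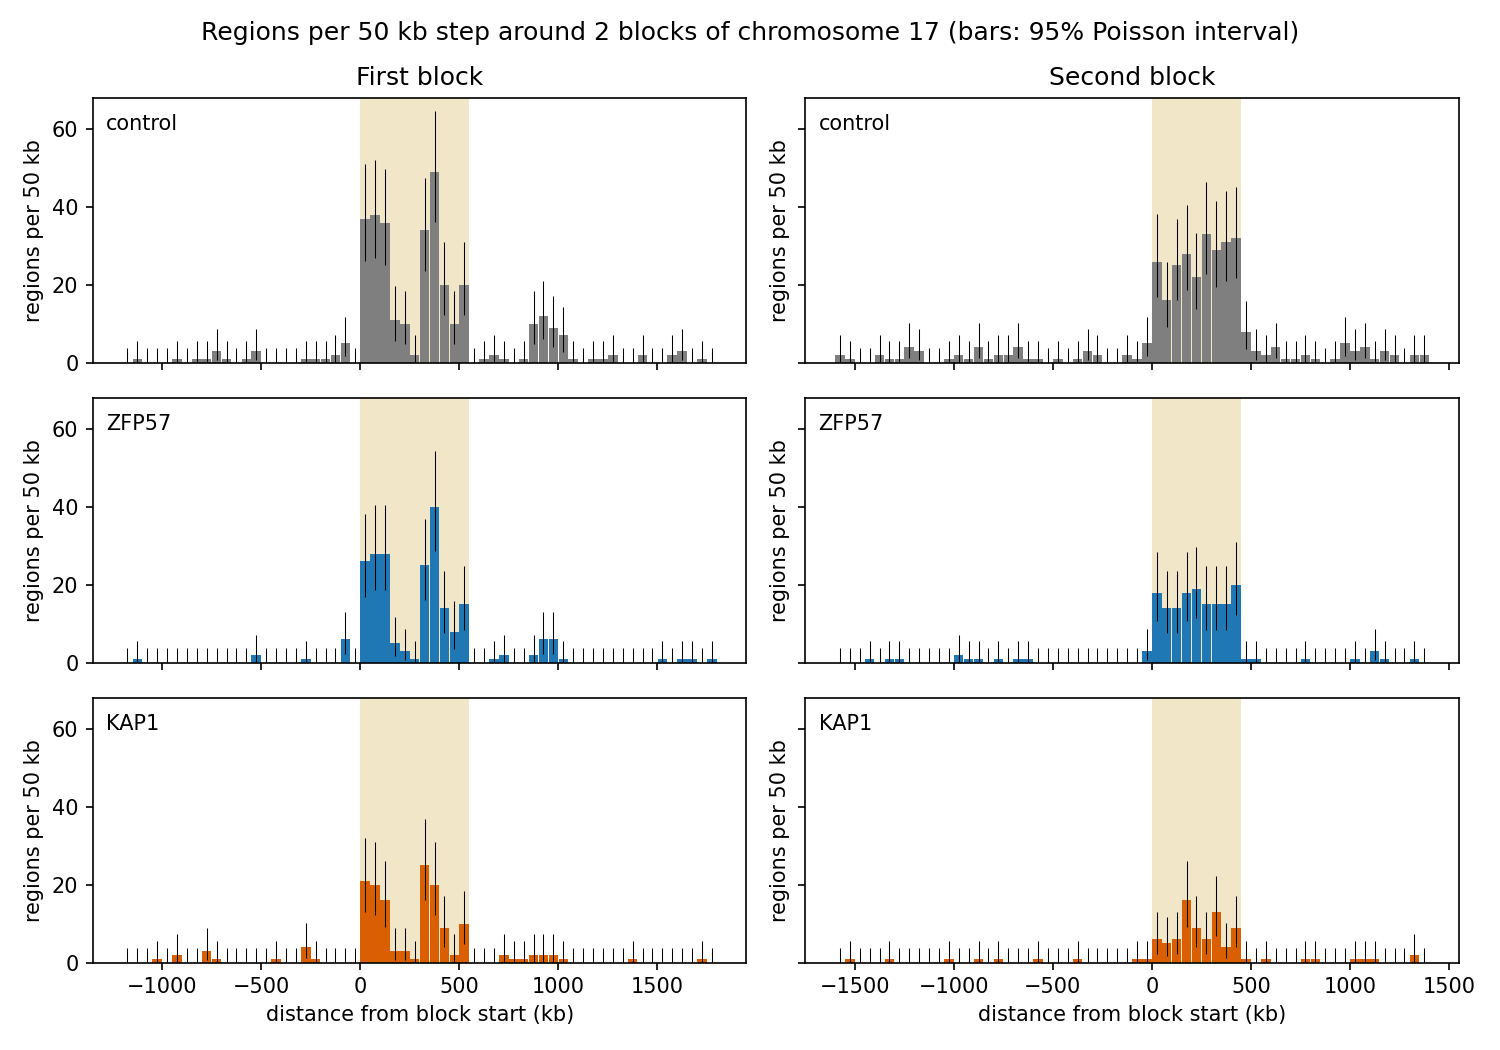
Number of regions per 50 kb step (vertical axis) against distance from the start of each block in kb (horizontal axis), for the control, ZFP57 and KAP1 lists (rows) and both blocks (columns). Shading marks the block fitted to the control list and black lines the 95% Poisson interval; the second block is level in the control and ZFP57 lists, while the first has a dip and a smaller rise beyond its end.

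The edges were abrupt. At the start of the first block the step outside held 0 regions in every list (an interval reaching up to 3.69), and the step inside held 37 control, 26 ZFP57 and 21 KAP1 regions. At its end the step inside held 20, 15 and 10 regions and the step outside again 0 in every list. At the start of the second block the counts went from 5 to 26 in the control, from 3 to 18 in the ZFP57 list and from 1 to 6 in the KAP1 list. At its end they went from 32 to 8, from 20 to 1 and from 9 to 1. Each edge was therefore crossed within 1 step in each of the 3 lists.

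Steps of 10 kb placed the edges of the first block at 13.22 and 13.75 Mb in the control and ZFP57 lists and at 13.21 and 13.75 Mb in the KAP1 list. For the second block they gave 30.59 and 31.06 Mb in the control and KAP1 lists and 30.58 and 31.06 Mb in the ZFP57 list. The libraries thus put every edge within 1 such step of each other.

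Single regions mark the edges more closely. Control regions were followed outward from each block for as long as the next one started within 10 kb. The chain through the second block ran from 30589472 to 31059958 on chromosome 17, a span of 470 kb with 251 control regions. Before it no control region started for 12.7 kb, and after it none for 21.7 kb. The first ZFP57 region of the chain started at 30589543, only 71 bp from the first control region, after 616 kb without a ZFP57 region. The first KAP1 region started at 30599927, after 58.6 kb without one. At the far side the last ZFP57 region ended at 31054914 and the last KAP1 region at 31054963, each about 5 kb short of the last control region, and the next regions of those lists lay 71.6 and 136 kb on.

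Around the first block the stretches without control regions were longer than around the second. Its control regions ran from 13222020 to 13746912, a span of 525 kb, with 74.6 kb free of control regions before and 78.9 kb after. The last ZFP57 region lay 774 bp and the last KAP1 region 1000 bp short of the last control region. After these, 136 kb passed without a ZFP57 region and 178 kb without a KAP1 region. A single ZFP57 region, at 13211560, and KAP1 regions from 13215834 on lay ahead of the first control region, so the start differed between lists by about 10 kb.

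The level inside each block stood well above its flanks. In the first block the control list held 24.3 regions per step against 1.59 per step in the flanks, a ratio of 15.2 (95% interval 11.8 to 19.9). The ZFP57 list held 17.5 against 0.653, a ratio of 26.9 (18.4 to 40.4), and the KAP1 list 11.8 against 0.531, a ratio of 22.3 (14.5 to 35.4). In the second block the ratios were 14.7 (11.6 to 18.9) for the control, 38.1 (24.3 to 62.7) for ZFP57 and 23.3 (13.8 to 41.4) for KAP1. The control thus had the most regions inside, and also the fullest flanks, so its ratio to them was the lowest of the 3 in both blocks with these flanks. In the second block the interval of the control ratio lay apart from that of ZFP57 and overlapped that of KAP1. In the first it overlapped both. The flanks of the first block include a smaller rise from 14.05 to 14.25 Mb, described below. Without it, a choice made after seeing the data, the first block stood 27.3 times above its flanks in the control, 46.4 times in the ZFP57 list and 27.99 times in the KAP1 list, so that control and KAP1 were nearly equal. With the 500 kb on either side as flanks, the ratios were 9.16, 14.04 and 13.9.

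Inside the second block the regions were spread almost level. From its first to its last step the control list held 26, 16, 25, 28, 22, 33, 29, 31 and 32 regions. The ZFP57 list held 18, 14, 14, 18, 19, 15, 15, 15 and 20, and the KAP1 list 6, 5, 6, 16, 9, 6, 13, 4 and 9. No step was empty in any list, and the control exceeded ZFP57 in every step, by as little as 16 to 14 in the second. The variance of the step counts was 1.08 times their mean in the control, 0.321 times in the ZFP57 list and 1.94 times in the KAP1 list, where counts scattered independently and evenly would give a value near 1. All 45 sections of 10 kb held a control region, all 45 held a ZFP57 region, and 36 held a KAP1 region.

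The first block was uneven. Its control counts were 37, 38, 36, 11, 10, 2, 34, 49, 20, 10 and 20. The ZFP57 counts were 26, 28, 28, 5, 3, 1, 25, 40, 14, 8 and 15, and the KAP1 counts 21, 20, 16, 3, 3, 1, 25, 20, 9, 2 and 10. All 3 lists were high over the first 3 steps, fell together to 2, 1 and 1 regions in the step from 13.45 to 13.5 Mb, and rose again in the next step. The longest distance between neighbouring starts fell at this dip in each list. It was 51.9 kb in the control (from a region ending at 13447250 to one starting at 13499012), 65.9 kb in the ZFP57 list (end at 13433277, next start at 13499032) and 64.6 kb in the KAP1 list (end at 13434483, next start at 13498945). The next region after the gap started within 100 bp in all 3 lists. The variance of the step counts was 9.52 times the mean in the control, 9.13 times for ZFP57 and 6.68 times for KAP1. Of the 55 sections of 10 kb, 44 held a control region, 44 a ZFP57 region and 36 a KAP1 region.

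The libraries followed the same profile in the first block. Across its 11 steps, Pearson's r was 0.99 between control and ZFP57 counts, 0.93 between control and KAP1 and 0.90 between ZFP57 and KAP1. Across the 9 steps of the second block r was 0.20, 0.17 and 0.40. KAP1 counts there ranged from 4 to 16. These values describe steps of the same 3 libraries, which also share the mappability of the sequence, and steps are not replicates. In the first block, distances between starts also recurred from one side of the dip to the other, as given below. Its steps are therefore not independent of each other.

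The dip divides the first block into 2 parts of equal length with nearly equal content. In every list, series of consecutive distances between starts in the first part recurred in the second. They came in the same order and were equal or nearly equal in bp. The 2 parts are therefore not taken as separate observations, and the origin of the recurrence was not tested. Counts, r values and overlap shares of the first block include both parts. The part from 13.2 to 13.45 Mb held 132 control (95% interval 110 to 157), 90 ZFP57 (72.4 to 111) and 63 KAP1 regions (48.4 to 80.6). The part from 13.5 to 13.75 Mb held 133 (111 to 158), 102 (83.2 to 124) and 66 (51.04 to 84.0). The intervals of the 2 parts overlapped in every list. With the recurring distances, nothing is read from this overlap. Beyond the block, from 14.05 to 14.25 Mb, a lower rise held 38 control (26.9 to 52.2), 15 ZFP57 (8.40 to 24.7) and 7 KAP1 regions (2.81 to 14.4), in the same order of lists. Just ahead of the block, the step from 13.1 to 13.15 Mb held 5 control and 6 ZFP57 regions and 0 KAP1 regions, a count that allows up to 3.69.

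Spacing within a list differed between the blocks. In the first block the median distance between neighbouring starts was 878 bp in the control (95% interval of the median 795 to 946), 1024 bp in the ZFP57 list (857 to 1180) and 1447 bp in the KAP1 list (1047 to 1967). In the second block it was 1322 bp (1085 to 1619), 2376 bp (1834 to 2912) and 4070 bp (2237 to 6547). In both blocks, then, the median distance lengthened from control to ZFP57 to KAP1, as the number of regions fell. The coefficient of variation of the distances was 2.15, 2.24 and 1.96 in the first block. In the second it was 0.919, 0.899 and 0.932, close to the value of 1 that independent, even placement gives. The longest distance without a start was 11.9 kb in the control, 11.7 kb in the ZFP57 list and 19.4 kb in the KAP1 list of the second block.

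Regions with another of the same list no more than 1 kb away made up 80.1% of control, 69.9% of ZFP57 and 56.2% of KAP1 regions in the first block. In the second they made up 62.0%, 45.3% and 27.0%. In a stretch of set length this share rises with the number of regions. The order inside the blocks therefore goes with the counts that selected the windows. Over the whole lists the order of the libraries is the opposite, with 28.8%, 48.2% and 57.5%. The KAP1 share of the second block, 27.0%, thus lay below that of the whole KAP1 list, while its control share, 62.0%, lay above that of the whole control list. In the flanks of the second block the control share was 8.60%.

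**Figure D2:**
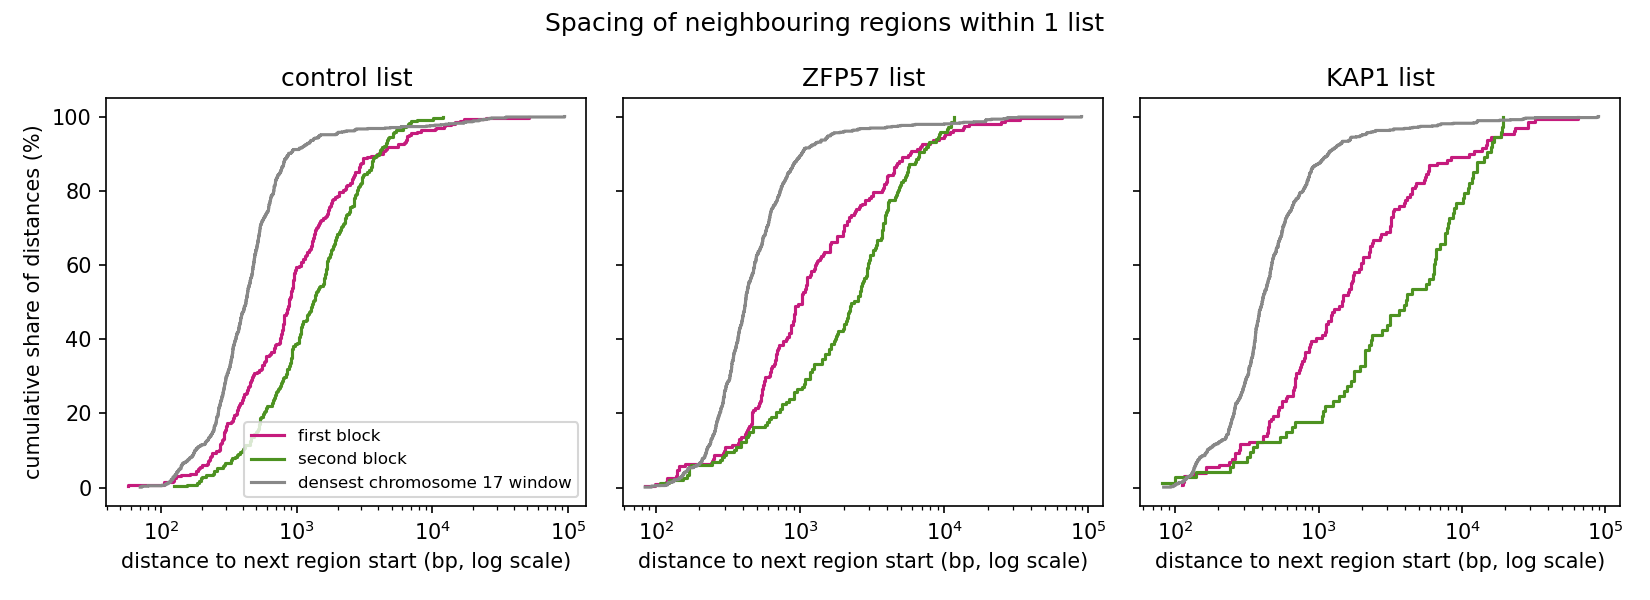
Cumulative share of distances (vertical axis, percent) against the distance from 1 region start to the next in the same list (horizontal axis, bp, log scale), for the first block, the second block and the window of chromosome 17 from 6 to 7 Mb, in the control, ZFP57 and KAP1 lists. The curves of the 6 to 7 Mb window lie furthest left in each list (medians of 422, 417 and 403 bp), and those of the second block furthest right over most of their length.

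The windows that hold similar numbers in all libraries had shorter distances. The window from 6 to 7 Mb of chromosome 17 had 777 control, 711 ZFP57 and 720 KAP1 regions at a median distance of 422, 417 and 403 bp, and 97.2%, 96.9% and 95.8% of them had a neighbour within 1 kb. Its step counts ranged from 0 to 119 in the control, with a variance 45.8 times the mean. Chromosome 8 from 19 to 20 Mb and chromosome 1 from 87 to 88 Mb had control variances of 68.4 and 67.1 times the mean, with 7 and 9 of 20 steps empty. These are values over whole 1 Mb windows, sparse steps included, and not over fitted blocks. The dense run of the chromosome 17 window, from 6.2 to 6.55 Mb, had a control variance of 10.98 times the mean, near the 9.52 of the first block.

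Sharing of single positions was counted next. Overlapping regions of the 3 lists were joined into loci, and each locus was sorted by the lists present. The first block held 381 loci, of which 34 held all 3 lists, a share of 8.92% (95% interval 6.26 to 12.2%). The second held 360 loci, of which 15 held all 3, a share of 4.17% (2.35 to 6.78%). Loci of the control alone were the most frequent kind, at 35.2% in the first and 48.1% in the second block. ZFP57 alone made up 18.6% and 23.3%, KAP1 alone 10.2% and 9.17%, and the pair of control and ZFP57 14.4% and 9.44%. Over all 64484 loci of the series 11.8% held all 3 lists, 50.9% the control alone, 13.9% ZFP57 alone and 13.4% KAP1 alone. The pair of control and ZFP57 made up 4.32% of them. The share of loci with all 3 lists in the first block has an interval that includes the general share. That of the second block lies below it. Counted per region, overlap with both other lists was below that of the whole lists in both blocks, as given further on. Among loci, control alone was below the general share in the first block and near it in the second. ZFP57 alone was above its general share in both blocks (14.9 to 22.9% and 19.1 to 28.1%). So was the pair of control and ZFP57 (11.1 to 18.4% and 6.63 to 12.9%). The interval of KAP1 alone included its general share in the first block (7.38 to 13.7%) and lay below it in the second (6.39 to 12.6%). All these shares depend on how many regions each list has in the blocks. The windows were selected on those counts, so the differences from the general shares are descriptions only. When midpoints within 500 bp counted as shared, 72.0% of ZFP57 and 73.8% of KAP1 regions of the first block were near a control region. In the second block these were 58.8% and 68.9%. Such regions need not overlap. With control starts a median of 878 and 1322 bp apart in the blocks, such nearness is frequent in any case. This looser rule was not applied to the flanks or the whole lists.

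The windows with similar counts in all libraries had higher shares. On chromosome 17 from 6 to 7 Mb, 412 of 819 loci held all 3 lists (50.3%), on chromosome 8 from 19 to 20 Mb 416 of 619 (67.2%) and on chromosome 1 from 87 to 88 Mb 277 of 420 (66.0%). These intervals lie far from those of both blocks (46.8 to 53.8%, 63.4 to 70.9% and 61.2 to 70.5%). Loci of all 3 lists cannot outnumber the regions of the shortest list, which was KAP1 in both blocks with 130 and 74 regions. The windows were selected on these counts, so part of the contrast follows from the selection and nothing is read from it. Overlap becomes more frequent as regions crowd, and the regions of these windows lay closer together, with medians of 422, 409 and 405 bp between control starts. Control regions covered 7.21% of the bases of the first block and 8.06% of the second.

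**Figure D3:**
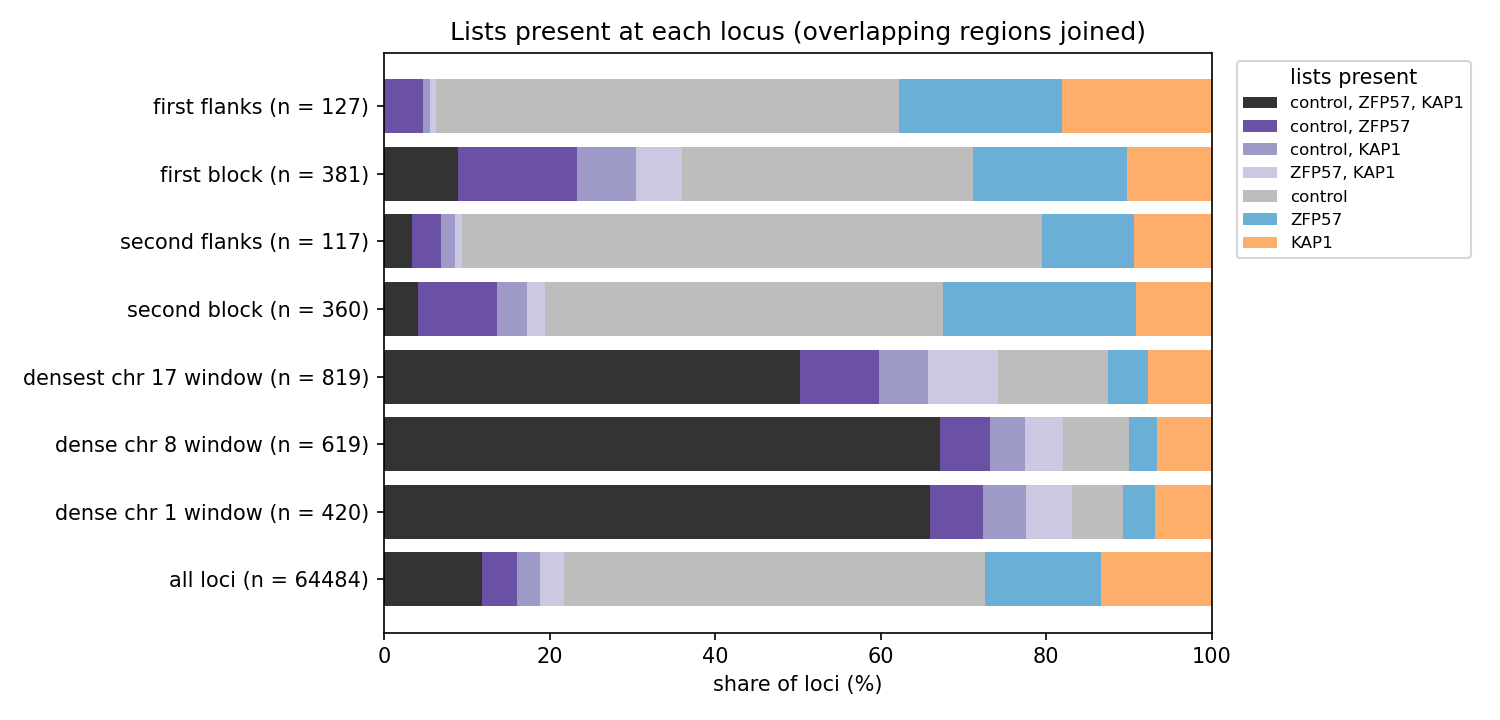
Share of loci in percent (horizontal axis) by the lists present, after joining overlapping regions, for the flanks and the body of each block, 3 windows with similar counts in all libraries, and the whole series; n is the number of loci. Loci of all 3 lists make up 8.92% and 4.17% in the blocks and 50.3 to 67.2% in the 3 windows.

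By list, 89 of the 193 ZFP57 regions of the first block overlapped a control region (46.1%, 38.9 to 53.4%), and so did 69 of its 130 KAP1 regions (53.1%, 44.1 to 61.9%). Both intervals include the share over the whole list, which was 49.0% for ZFP57 and 47.1% for KAP1. In the second block 53 of 148 ZFP57 regions (35.8%, 28.1 to 44.1%) and 32 of 74 KAP1 regions (43.2%, 31.8 to 55.3%) lay on a control region. The ZFP57 share of the second block was below that of the whole list and close to its own flanks, where 8 of 22 regions overlapped (36.4%, 17.2 to 59.3%). Beside the first block the flank shares were lower than inside it: 6 of 32 ZFP57 regions (18.8%, 7.21 to 36.4%) and 1 of 26 KAP1 regions (3.85%, 0.0973 to 19.6%) overlapped a control region. KAP1 regions lay on ZFP57 regions in 53 of 130 cases in the first block (40.8%, 32.2 to 49.7%) and in 25 of 74 in the second (33.8%, 23.2 to 45.7%), against 47.5% over the whole list. The share in the second block was below that of the whole list beyond its interval. In the first block 11.6% of control (8.03 to 16.07%) and 14.5% of ZFP57 regions (9.86 to 20.3%) overlapped both other lists. Of its KAP1 regions 23.8% did (16.8 to 32.1%). Over the whole lists these shares were 16.6%, 34.9% and 36.8%, each above the interval of the first block. In the second block they were 7.02%, 11.5% and 22.97%, also below the whole lists beyond their intervals. Such shares depend as well on the region counts that selected the windows, and are descriptions only.

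Regions that did not overlap were mostly close by. Of the 104 ZFP57 regions of the first block off the control list, 79 started within 1 kb of a control region, at a median of 511 bp for all 104. In the second block it was 66 of 95, with a median of 576 bp. Of the KAP1 regions off the control list, 46 of 61 and 32 of 42 were within 1 kb. With control starts about 1 kb apart, such distances are short in any case. The longest run of consecutive loci holding all 3 lists was 3 loci in the first block, from 13744769 to 13745685, with 3 regions of each list, at the end of the block. In the second block it was 2 loci, from 30762340 to 30764323, inside a 10 kb section that also held the most KAP1 regions of the block, 10 from 30760001 to 30770000.

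The order of the lists depends on their lengths. The first block held 0.723 ZFP57 regions per control region (95% interval 0.598 to 0.873), and the second 0.612 (0.495 to 0.753). Both were above the ratio of the whole lists, 0.479, so that relative to list length ZFP57 was higher than the control by 1.51 times in the first block and 1.28 times in the second. The first block held 0.487 KAP1 regions per control region (0.392 to 0.603), an interval that includes the 0.454 of the whole lists. The second held 0.306 (0.232 to 0.398), below it. There were 0.674 KAP1 regions per ZFP57 region in the first block and 0.50 in the second, where the whole lists give 0.947. The windows were selected on these counts, so all these ratios describe the blocks and test nothing. The fall from control to ZFP57 is thus a fall in raw counts alone. Depth and calling threshold, which can affect list length, are unknown, and their part was not tested.

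In the flanks the ratios were lower than in the blocks. There were 0.410 ZFP57 regions per control region beside the first block (0.263 to 0.627) and 0.237 beside the second (0.141 to 0.380). For KAP1 the values were 0.333 (0.205 to 0.525) and 0.194 (0.110 to 0.323). The ZFP57 interval of the second block lay above that of its flanks, while the other 3 pairs overlapped.

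The same order was not rare among dense windows. Of the 51 windows of 1 Mb with at least 100 control regions, 15 had counts falling from control to ZFP57 to KAP1, which is 29.4%, both windows included. Since this order chose the windows, nothing is read from their place among the 15 or from the ranks that follow, which rest on the same counts. By KAP1 regions per control region the 30 to 31 Mb window ranked 2 from the lowest of 51 and the 13 to 14 Mb window 7. A ratio at or below that of the whole lists occurred in 6 windows (11.8%), among them the 30 to 31 Mb window. By KAP1 per ZFP57 region they ranked 3 and 5 from the lowest, and 5 windows (9.8%) were at or below the 13 to 14 Mb window. By ZFP57 regions per control region the 30 to 31 Mb window ranked 6 from the lowest and the 13 to 14 Mb window 9. The median dense window held 0.927 KAP1 and 0.894 ZFP57 regions per control region. Chromosome 17 held 5 of the 15 windows in this order, the others being 7 to 8 Mb with 181, 103 and 68 regions, 27 to 28 Mb with 132, 55 and 46, and 36 to 37 Mb with 146, 102 and 66.

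**Figure D4:**
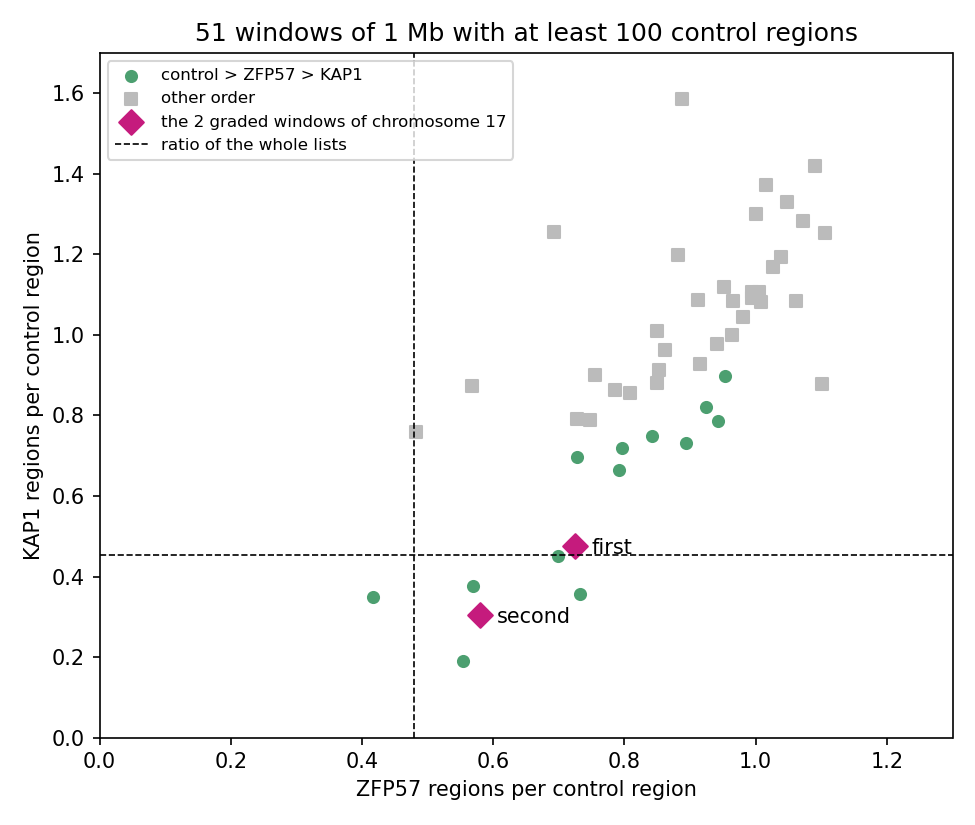
KAP1 regions per control region (vertical axis) against ZFP57 regions per control region (horizontal axis) in the 51 windows of 1 Mb with at least 100 control regions. Diamonds mark the 13 to 14 Mb (first) and 30 to 31 Mb (second) windows of chromosome 17, circles the other windows in the same order and squares the rest. Both diamonds lie right of the dashed line at 0.479, the ZFP57 ratio of the whole lists, and on either side of the line at 0.454 for KAP1. Every other window except chromosome 17 from 27 to 28 Mb also lies right of the line at 0.479.

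Runs of dense steps show where similar blocks lie. At least 5 consecutive steps with at least 10 control regions each occurred in 18 runs over the genome, of which 5 (27.8%) had the falling order. 3 of these 5 are the 2 parts of the first block and the second block. Those 2 parts share recurring distances and are not separate cases. The other 2 are chromosome 17 from 7.1 to 7.35 Mb, where the counts were 77, 32 and 13, and chromosome 9 from 88.65 to 88.9 Mb, with 71, 55 and 44 (control, ZFP57 and KAP1). Both were as level as the second block, with a control variance of 0.669 and 0.683 times the mean, and the parts of the first block were not, with 8.0 and 8.64. A run on chromosome 3 from 93.75 to 94.05 Mb was level too (1.01), with 82, 71 and 106 regions, KAP1 being highest. In the remaining 12 runs the control variance was between 2.58 and 25.5 times the mean. The minimum of 10 per step holds the variance of short, thin runs down, so these values are descriptions.

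**Figure D5:**
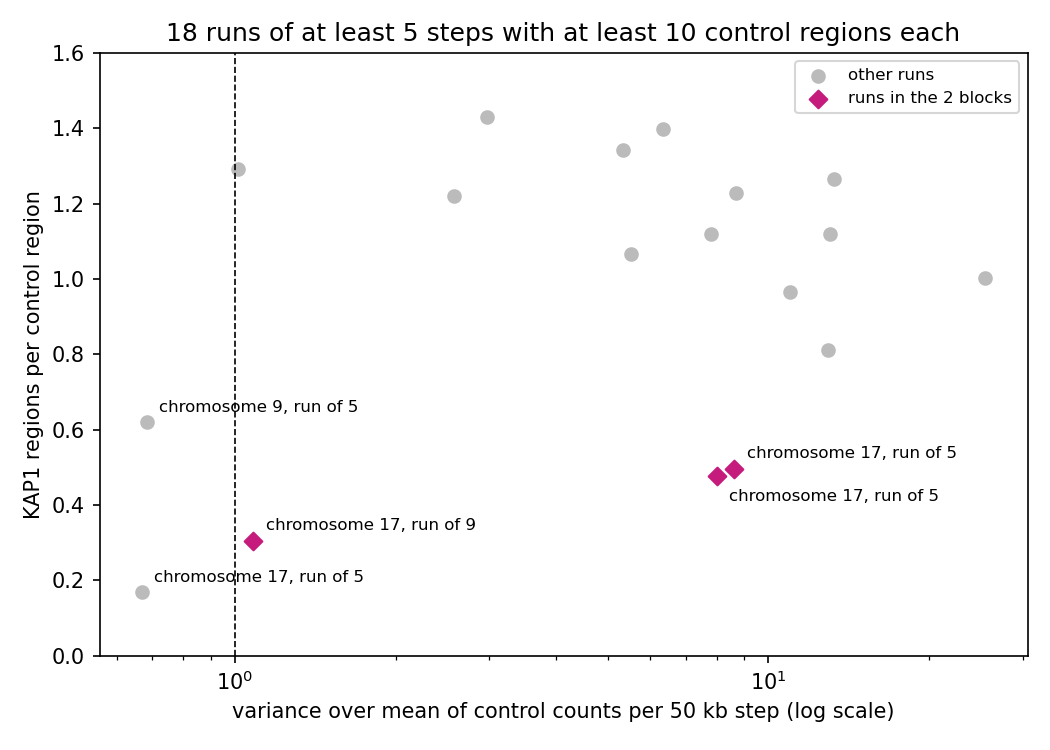
KAP1 regions per control region (vertical axis) against the variance over the mean of control counts per 50 kb step (horizontal axis, log scale) in 18 runs of at least 5 steps with at least 10 control regions each. Diamonds mark the runs in the 2 blocks, the dashed line marks a variance equal to the mean, and names give the chromosome and number of steps; the second block (run of 9) sits near the line at 1.08, and both parts of the first block lie at 8.0 and 8.64.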

How the data were processed

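The deposited files are 3 lists of regions, 1 per library, with chromosome, start and end and no header, score or depth; every region is 150 bp wide. Per the submitters' processing notes, Bowtie and build mm9 were used; the peak caller, its threshold and any control subtraction are not given in the sources used. Sequencing depth is unknown. Starts are printed counting from 1. Regions belong to a window by their start. A raised stretch was fitted to counts per 50 kb by Poisson likelihood and checked on simulated data. The simulations held 1 level stretch between level flanks, so the check does not cover the uneven first block. The block is the stretch of the control list and its flanks the rest of 12 to 15 or 29 to 32 Mb. Overlap counts from 1 bp. Intervals of count ratios come from exact binomial intervals. The members and rules were chosen with earlier results of these data known. The rule for named regions took, for each block, the fullest and emptiest steps, those at the edges, the longest run common to all lists and the longest gap. The chains, parts of the first block, their recurring distances and genome-wide runs were added after seeing the data. No gene is named and no sequence shown, because an mm9 genome or annotation is not used here. Python 3.11.15, numpy 2.4.6, pandas 2.3.3, scipy 1.17.1 and matplotlib 3.10.9 were used.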

Additional observations from a re-analysis of the deposited data

How the results depend on the processing

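No paired analysis was possible because there is only 1 library per group, and no replicate could be left out. Of 126 alternative values for 51 results, 100 kept within the interval or tolerance of the reported value. These include every window count, all edges (within 1 step of 50 kb) and all spacing values. With the 500 kb next to the first block as flanks, its ratio to the flanks was 9.16 in the control, 14.04 in the ZFP57 and 13.9 in the KAP1 list; this span holds the smaller rise. Without that rise, an alternative added after seeing the data, the ratios were 27.3 in the control and 46.4 in the ZFP57 list. Scaling to list length turned ZFP57 over control to 1.51 in the first and 1.28 in the second block, turned KAP1 over control to 1.07 in the first and gave 0.673 in the second. It left the falling order in 1 of the 51 dense windows; from 50 control regions upward 50 of 122 windows had it. Requiring 75 bp of overlap, or midpoints within 500 bp, changed most overlap shares, as a stricter or looser rule must. In the first block, control regions on both other lists were 6.37% and 34.1% under these 2 rules, ZFP57 on control 32.1% and 72.0%, KAP1 on control 33.8% and 73.8%, and KAP1 on ZFP57 27.7% and 65.4%. In the second they were 3.72% and 11.98%, 25% and 58.8%, and for KAP1 on ZFP57 18.9% and 47.3%; KAP1 on control was 68.9% under the looser rule. Unknown depth and threshold limit every comparison between the lists.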
